A study of Mus musculus with 4 samples.

Results

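Mouse dorsal root ganglia that had been stimulated electrically were compared with unstimulated ganglia 9 days later, at 19 days in vitro (DIV). The comparison took the 2 libraries of the series that were harvested at 19 DIV, out of 4 in all. Ganglia came from C57BL/6 embryos at embryonic day 13 and grew as explants on Matrigel-coated coverslips. All cultures were in growth medium until 8 DIV and in myelination medium after it. The stimulated group (ES) received 20 Hz at 50 mV/mm for 1 h at 10 DIV, and the control group received no stimulation. The other 2 libraries, harvested at 11 DIV, had the same treatments and are given here only beside the 19 DIV values. Each library held the RNA of 3 explants pooled together, so there was 1 library per group and no replicate. No test of a difference between conditions was possible, and every value below compares 1 library with another.

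The dorsal root ganglion holds the cell bodies of sensory neurons, which send axons to skin, muscle and viscera and carry touch, temperature, pain and body position. In culture the axons grow out of the explant, and Schwann cells, which come from the neural crest, multiply along them and wrap some in myelin once the medium allows it. Fibroblasts of the ganglion and nerve sheath lay down collagen and fibronectin, and Schwann cells make a basal lamina of laminin and type IV collagen. Insulin-like growth factor binding proteins are secreted into this matrix, where they hold or release the growth factors. RNA from such an explant is a mixture of all of these cells. In bulk RNA, fewer cells of a type and less RNA per cell cannot be told apart.

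Genes of secreted and matrix proteins stood among the highest differences and neuronal genes among the lowest. The sequences around the transcription start of 4 of them, those of a binding protein and a matrix glycoprotein that were higher and of both neuropeptide genes that were lower, are shown because these genes passed the stricter rule and stand for the 2 ends of the comparison. They run 5' to 3' from 250 bases before the start to 50 after it, as RefSeq gives them on GRCm38.p6. Capitals mark matches to 5 motifs, each searched on both strands. These were the cAMP response element, spelled TGACGTCA, and the TATA box of core promoters, spelled TATAAA. The binding motif of the factor NF-Y was spelled as in its name, the CCAAT box. The GC box of the Sp family of factors was spelled GGGCGG. The last was the site of AP-1, a dimer of Fos and Jun proteins, spelled TGANTCA. On the opposite strand each motif appears as its reverse complement.
Igfbp4 (chr11:99040994-99041293, plus strand): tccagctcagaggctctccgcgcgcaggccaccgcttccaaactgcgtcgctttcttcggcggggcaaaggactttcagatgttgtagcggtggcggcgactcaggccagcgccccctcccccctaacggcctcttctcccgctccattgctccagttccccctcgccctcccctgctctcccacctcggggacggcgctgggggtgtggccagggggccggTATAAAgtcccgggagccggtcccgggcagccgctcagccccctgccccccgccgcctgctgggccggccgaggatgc
Spp1 (chr5:104434861-104435160, plus strand): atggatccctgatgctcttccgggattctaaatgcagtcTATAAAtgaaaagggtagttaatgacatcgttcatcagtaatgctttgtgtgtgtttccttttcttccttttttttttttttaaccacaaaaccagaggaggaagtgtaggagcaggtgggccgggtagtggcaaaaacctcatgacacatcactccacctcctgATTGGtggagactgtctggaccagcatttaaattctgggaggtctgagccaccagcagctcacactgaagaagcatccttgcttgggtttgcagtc
Tac1 (chr6:7554811-7555110, plus strand): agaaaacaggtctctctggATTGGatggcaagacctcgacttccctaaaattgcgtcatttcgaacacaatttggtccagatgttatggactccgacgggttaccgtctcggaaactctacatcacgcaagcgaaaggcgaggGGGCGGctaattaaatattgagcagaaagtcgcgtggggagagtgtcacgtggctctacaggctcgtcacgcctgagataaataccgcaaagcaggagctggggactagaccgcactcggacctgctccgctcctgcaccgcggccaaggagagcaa
Calca (chr7:114636308-114636607, minus strand): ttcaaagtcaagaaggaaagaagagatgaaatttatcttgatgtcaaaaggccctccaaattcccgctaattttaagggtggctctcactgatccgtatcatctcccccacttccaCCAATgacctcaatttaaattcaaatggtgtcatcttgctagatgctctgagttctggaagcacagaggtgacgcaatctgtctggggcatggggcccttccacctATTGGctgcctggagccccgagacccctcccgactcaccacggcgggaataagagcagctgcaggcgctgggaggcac
The TATA box of Igfbp4 began at position -28 from the start. The Spp1 sequence held a TATA box at -211 and a CCAAT box at -46, the Tac1 sequence a CCAAT box at -231 and a GC box at -107, and the Calca sequence CCAAT boxes at -134 and -28. No match overlapped another. Promoters were matched for 9 of the 13 genes that were higher by the stricter of the rules described below and for 11 of the 13 lower ones. The TATA box was in 2 of the 9 (Igfbp4 and Spp1) and in 2 of the 11 (Map1b and Prph), against 8.52% of the 1267 matched genes of similar abundance and 14.2% of all 27025 promoters. The cAMP response element was in 0 of the 9 and in 2 of the 11 (Mif and Zwint), against 3.95% and 1.88%. The CCAAT box was in 1 of the 9 and 6 of the 11, against 38.7% and 37.9%. The GC box was in 5 of the 9 and 9 of the 11, against 69.6% and 35.9%, and the AP-1 site was in 0 of the 20, against 4.97% and 7.93%. These are letter matches in windows of 300 bases and describe neither binding nor use.

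At 19 DIV the control library held 6730614 reads and the ES library 7830950, and 9898 and 9632 of the 23282 gene rows had reads. The control library of 11 DIV held 6197537 reads and the ES library of that day 5782834. Counts were clumped: among genes expected at 200 to 1000 reads from the other libraries, 6.13% were at 0 in control and 7.50% in ES at 19 DIV, the latter the highest of the 4 libraries. Levels are given as CPM, a gene's reads per unit of library size after scaling by the trimmed mean of M values (TMM) over the 4 libraries. Of the defining markers, those of neurons (Tubb3, Stmn2 and Prph), Schwann cells (Sox10, Pmp22 and Mbp) and fibroblasts (Col1a1, Col1a2 and Col3a1) were abundant in both libraries. Other defining markers were low or at 0. Snap25 and Isl1 of neurons had 138 and 129 control reads and 0 ES reads. Of the Schwann cell markers Erbb3, a neuregulin receptor, had 0 control reads and 2 ES reads, and S100b 49 and 0. Pou4f1 of neurons and Lum and Pdgfra of fibroblasts had 344 to 703 reads in either library.

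How far low counts scattered set which genes were described first. Of genes with a mean of 50 to 200 reads in the 2 libraries, 83.9% differed at least 2-fold and 1483 of 3165 were at 0 in one of them. Of the 925 genes with a mean of 1000 to 2000 reads 27.2% differed by that much, of the 504 with 2000 to 5000 it was 12.5%, and of the 165 above that it was 7.88%. The text therefore describes the 1594 genes that averaged 1000 reads or more, which took 63.5% of the control reads and 65.1% of the ES reads. Of these, 1147 had at least 1000 reads in both libraries. The other 447 were under 1000 in one library and entered through the other, so a part of their difference comes with the selection.

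Among the 1594 genes, 189 were at least 2-fold higher in ES (11.9%) and 139 at least 2-fold lower (8.72%), while 1266 were neither. The median log2 difference was 0.05, and 844 genes were above equality. A stricter rule divided both counts by a spread factor of 235, which measures how much more the libraries scattered than counting alone would give, and asked for a 2-fold difference with a 99% interval that excluded equality. This spread-adjusted rule left 13 genes higher (0.816%) and 13 lower (0.816%), and without any count minimum the rule left the same total of 26. Ranges after a ratio below are 95% intervals on the divided counts. They treat all difference between the 2 libraries as scatter and do not stand in for replicates.

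**Figure D1:**
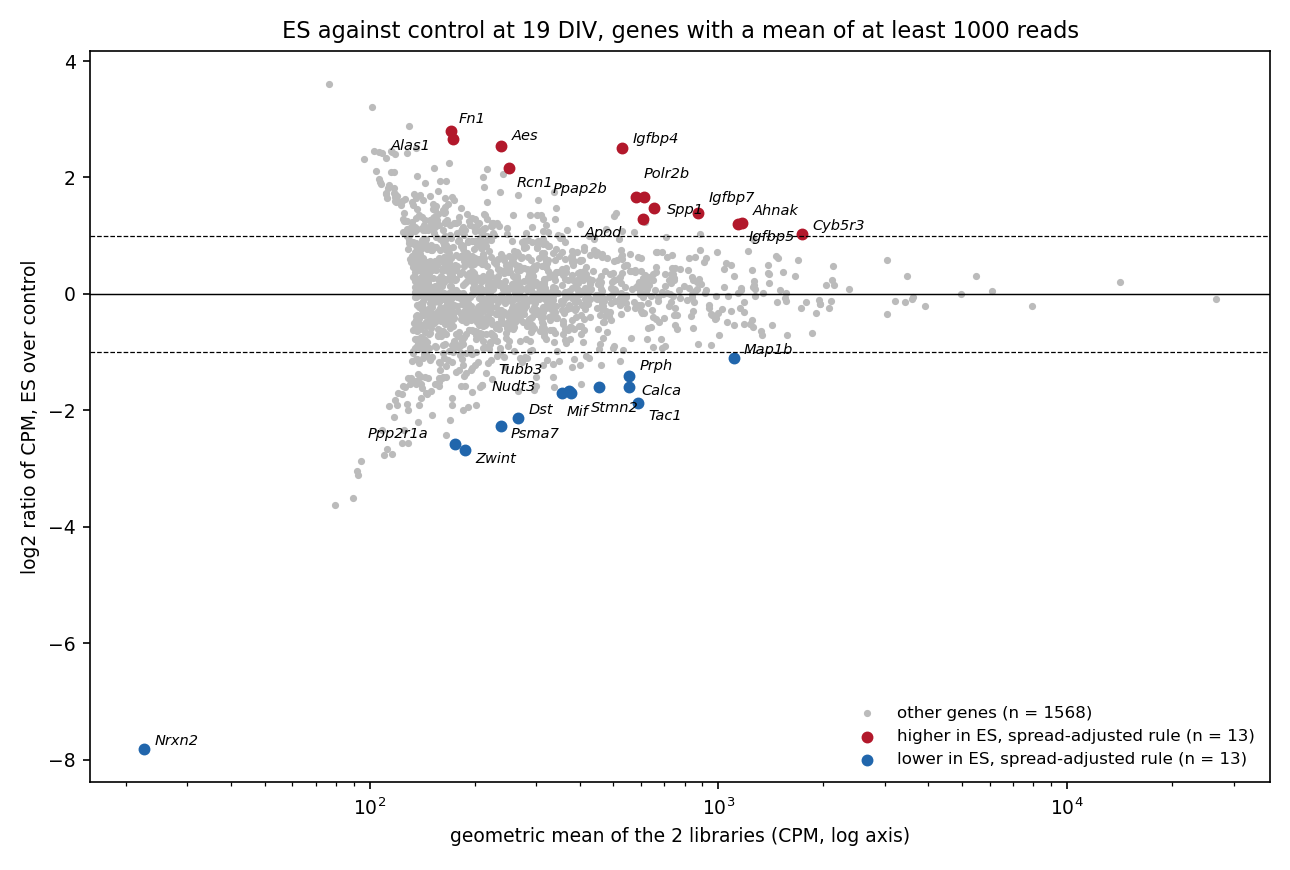
Log2 ratio of ES to control at 19 DIV against the geometric mean of both libraries in CPM (log axis) for 1594 genes, each point 1 gene. The 13 genes higher by the spread-adjusted rule are red, the 13 lower are blue, and dashed lines mark 2-fold differences. The scatter widens to the left, and Nrxn2 lies far below all other genes.

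The insulin-like growth factor binding proteins led the genes that were higher. Of 5 members of the insulin-like growth factor list at this abundance, 3 passed the spread-adjusted rule upward, 0 downward, and the median log2 difference was 1.20. The summed level of the 20 listed genes was 5356 CPM in ES and 2491 CPM in control, and it was 2322 and 2852 CPM in the ES and control libraries at 11 DIV. Igfbp4, which binds the growth factors and limits their access to the receptor (protein-coding, chromosome 11, 99041244 to 99054392, plus strand, GRCm38), had 10080 ES reads against 1525 control reads. Its levels were 1262 CPM and 221 CPM, a ratio of 5.71 (2.48 to 15.7). The 11 DIV libraries were at 160 and 145 CPM, so the ES library at 19 DIV stood apart from all 3 others. Igfbp5, a matrix-bound member of the family (chromosome 1, 72857932 to 72874884, minus strand), had 13773 ES reads against 5183 control reads. It was at 1725 and 752 CPM, a ratio of 2.29 (1.38 to 3.93). Igfbp7, a more distant relative with weak affinity for the growth factors, had 11337 and 3720 reads, or 1420 and 540 CPM (2.63, 1.47 to 4.98). The receptor Igf1r was at 1.54 times control (0.522 to 5.08), within its interval of equality, and Igf2bp2, which binds the message of the growth factor rather than the protein, was at 0.831 (0.219 to 3.13).

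Igfbp7 shares its 3' end with a neighbour. Polr2b, a core subunit of RNA polymerase II, lies on the opposite strand of chromosome 5 (77310147 to 77349324), and its end overlaps that of Igfbp7 (77349240 to 77408041) by 85 bases. It had 8690 ES reads against 2366 control reads, a ratio of 3.17 (1.55 to 7.13), and also passed the spread-adjusted rule. Polr2b had 0.628, 0.670, 0.636 and 0.767 reads for each Igfbp7 read in the control and ES libraries of 11 DIV and then of 19 DIV. The ratio was nearly constant over libraries in which Igfbp7 itself ranged from 414 to 1420 CPM. The sources used here do not say whether counting used strand. The values of both genes are uncertain and they are 1 or 2 differences.

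Interstitial matrix genes were mostly above equality. Of 21 members of the fibrillar collagen and interstitial matrix list, out of 39 with a read, 7 were at least 2-fold higher, 0 lower and 19 above equality, with a median log2 difference of 0.68. Only Fn1 of these passed the spread-adjusted rule. Fn1, fibronectin, which links cells to collagen (chromosome 1, 71585520 to 71653200, minus strand), had 3592 ES reads against 447 control reads. Its levels were 450 CPM and 64.8 CPM, a ratio of 6.94 (1.58 to 67.5). Both 11 DIV libraries lay between, at 241 CPM in control and 252 CPM in ES, so here the control library at 19 DIV was low against all others. Col5a2, a chain of type V collagen, which starts the assembly of type I fibrils, had 6402 and 2175 reads and a ratio of 2.54 (1.17 to 6.06). Loxl2, a collagen cross-linking oxidase, had 2004 and 325 reads, and Ccdc80, a matrix protein, 2163 and 339 (ratios 5.32 and 5.51). The intervals of the latter 2 reached below equality. The most abundant members were all under 2-fold, with Col1a2 at 1.24 (0.995 to 1.54), Col1a1 at 1.49 (1.11 to 2.02) and Col3a1 at 1.54 times control (1.00 to 2.40).

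The basal lamina list was closer to equality. None of its 15 members at this abundance differed 2-fold, 11 were above equality, and the median log2 difference was 0.31. Lamc1, the laminin gamma chain found in most laminins, had 7950 ES reads against 3471 control reads (1.98, 1.04 to 3.93). Col4a1, type IV collagen, was at 1.35 (0.806 to 2.29), and Itgb1, the integrin beta chain through which cells hold laminin and fibronectin, at 1.68 (0.958 to 3.04). Sparc, a collagen-binding glycoprotein and one of the most abundant messages, was at 7391 CPM in ES and 8544 CPM in control (0.865, 0.723 to 1.03). Lama2, the laminin chain of the Schwann cell basal lamina, was at 0.609 (0.220 to 1.61).

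The list of matrix proteases and their inhibitors, which also held Spp1, had 13 members at this abundance. Of these, 3 were 2-fold higher (Adamts1, Adamts5 and Spp1), 0 were lower, and only Spp1 passed the spread-adjusted rule. Spp1, osteopontin, a secreted phosphoprotein that binds integrins (chromosome 5, 104435118 to 104441050, plus strand), passed the spread-adjusted rule with 8716 ES reads against 2707 control reads, or 1091 and 393 CPM (2.78, 1.40 to 5.94). In control at 11 DIV it was at 1089 CPM, so the ES library at 19 DIV was at the earlier control level and the 19 DIV control was the lowest of the 4. Adamts5, which cuts aggrecan and versican, had 3456 and 888 reads (3.36, 1.04 to 14.6). Serpine2, an inhibitor of thrombin and plasminogen activators made by glia, had 13929 and 6218 reads (1.93, 1.20 to 3.18), just under 2-fold with an interval above equality. The metalloprotease inhibitors Timp3 and Timp2 were at 1.40 (0.981 to 2.01) and 0.934 (0.646 to 1.35). Tgfbi, a matrix protein named for its induction by TGF-beta, had 3651 and 715 reads (4.41, 1.26 to 23.3), and Pmepa1, another target of that pathway, was at 1.70 (0.809 to 3.75).

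**Figure D2:**
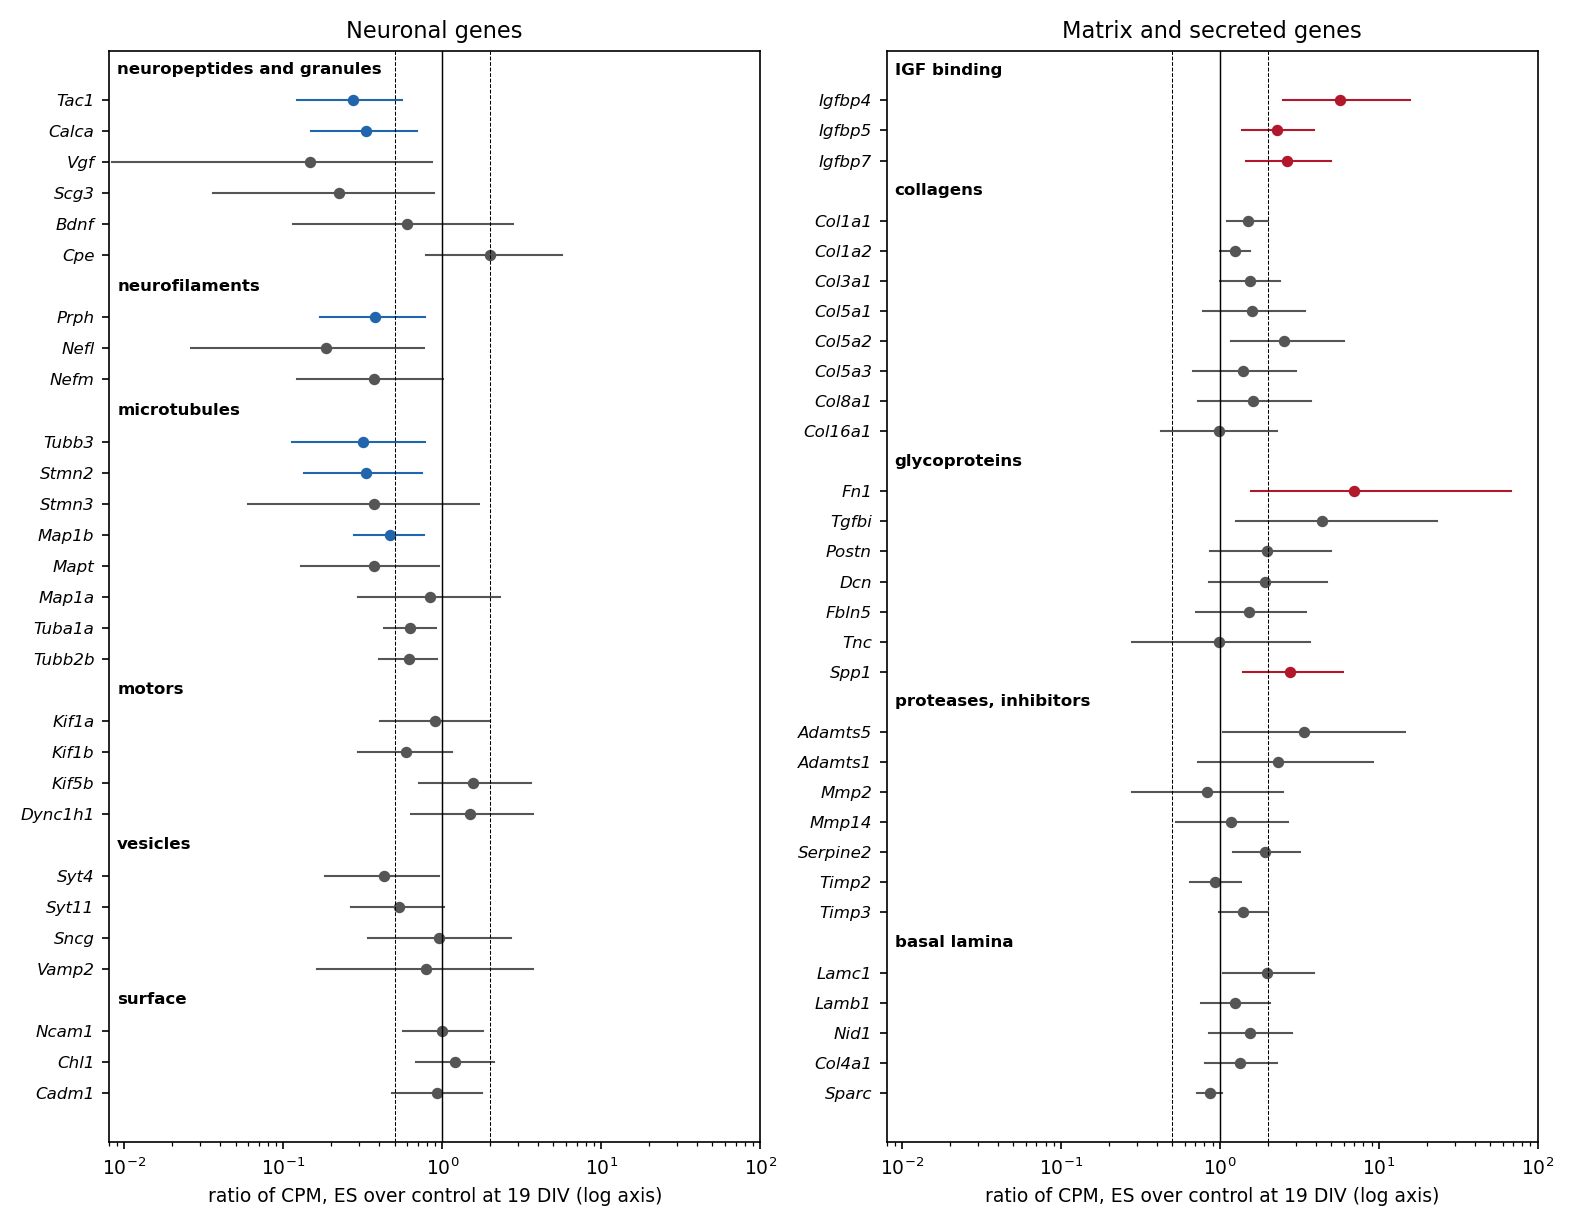
Ratio of CPM in ES to control at 19 DIV (log axis) for single genes grouped by role, neuronal on the left and matrix or secreted on the right. Points are ratios, lines are 95% spread-adjusted intervals, dashed lines mark 2-fold, and colour marks genes past the spread-adjusted rule. Ncam1, Chl1 and Cadm1 lie near 1 on the left, as do Sparc, Timp2 and Col16a1 on the right.

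Of the other genes higher by the spread-adjusted rule, Apod, a lipid-binding lipoprotein of nerve fibroblasts and glia, had 7629 ES reads against 2683 control reads (2.45, 1.22 to 5.32). Ahnak, a giant scaffold protein under the cell membrane, had 14247 and 5309 reads (2.32, 1.41 to 3.94). Rcn1, a calcium-binding protein of the endoplasmic reticulum, had 4222 and 817 reads (4.46, 1.39 to 20.5), and it was also above equality at 11 DIV (2.88, 0.792 to 14.1). It was the sole gene of the 34 on the endoplasmic reticulum and secretory list to pass. That list had 4 members 2-fold higher, 2 lower and a median log2 difference of 0.20, with the chaperones Hspa5 at 1.49 (1.00 to 2.26) and Hsp90b1 at 1.53 (0.883 to 2.71). Myh9, non-muscle myosin heavy chain, was at 2.61 (1.20 to 6.23), while the 26 contractile and actin genes as a list had a median of 0.17 and Actb was at 1.04 (0.848 to 1.28).

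The last 4 belonged to no matrix or neuronal list. Cyb5r3, the reductase of cytochrome b5 (chromosome 15, 83153494 to 83172592, minus strand), was the most abundant of all 13, with 19868 ES reads against 8375 control reads (2.05, 1.37 to 3.12). Ppap2b (current symbol Plpp3), a phosphatase that removes lysophosphatidic acid outside the cell, had 8240 and 2242 reads (3.17, 1.52 to 7.32). Alas1, the first enzyme of haem synthesis, had 3472 and 476 reads, or 435 and 69.1 CPM (6.30, 1.47 to 55.7). Aes (current symbol Tle5), a transcriptional corepressor related to the Groucho proteins, had 4590 and 684 reads, or 575 and 99.2 CPM (5.79, 1.69 to 31.5). For Alas1 and Aes the control library at 19 DIV was the lowest of the 4: the 11 DIV libraries held 198 and 217 CPM of Alas1 and 504 and 783 CPM of Aes in control and ES. Like Fn1 and Rcn1, both had under 1000 reads in control and entered through the ES library.

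Markers of other cell types were at low levels, and several of their sums rested on few genes. Summed CPM were 317 in ES and 166 in control for 15 endothelial markers, 548 and 297 for 12 pericyte and mural markers, 291 and 70.4 for 17 skeletal muscle and cartilage markers and 702 and 433 for 13 perineurial markers. For 19 macrophage markers they were 143 and 86.2, and for 16 spinal cord markers 20.9 and 18.1. The endothelial difference came from Ets1, a transcription factor that other cells express too, at 251 and 49.8 CPM, and the other 14 endothelial markers summed to 66.0 CPM in ES and 116 CPM in control. Without Col11a1 (210 and 53.8 CPM) the muscle and cartilage markers summed to 80.4 and 16.5 CPM, of which Sox9 made up 78.3 and 0. Without Laptm5 the macrophage markers summed to 86.8 and 86.2 CPM. The pericyte and mural markers without Acta2 stayed higher in ES, at 388 and 258 CPM. So did the perineurial markers without Klf5, at 535 and 383 CPM. Of the 8 perineurial markers with a read, however, 3 had reads in control only (37.5%) and 0 in ES only. The control library and the ES library each had 10 of the endothelial, 14 of the muscle and cartilage and 14 of the macrophage markers at 0. Of 27 fibroblast markers outside the collagens 17 had a read, 6 of them in ES only (35.3%) and 1 in control only (5.88%). Over all genes with a read the shares were 13.9% in ES only and 16.2% in control only. Of the fibroblast markers, Prrx1, a transcription factor of mesenchyme, had 1107 ES reads against 0 control reads. Ebf1, another, had 467 and 1382. Pdgfra, the receptor that marks many fibroblasts, was at 1.07 times control (0.130 to 10.2). The part of such cells in the matrix differences was not tested.

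Neuronal genes made up most of the genes lower by the spread-adjusted rule. The neuronal lists together named 179 genes, of which 151 had a read and 46 reached a mean of 1000 reads. These 46 were 2.89% of the genes described and 12.2% of those 2-fold lower: 17 were lower and 1, Cpe, was higher. By the spread-adjusted rule 7 of the 13 lower genes were neuronal (Calca, Map1b, Nrxn2, Prph, Stmn2, Tac1 and Tubb3) and 0 of the 13 higher. The matrix lists, counted in the same way, had 61 members (3.83% of the genes), of which 16 were 2-fold higher and 0 lower. Some members on both sides had under 1000 reads in one library and entered through the other. Among them, Nrxn2, Vgf, Nefl and Scg3 entered through control, and Fn1, Loxl2 and Ccdc80 through ES. A part of these counts therefore comes with the selection. The summed level of all 179 neuronal genes was 19202 CPM in ES and 31175 CPM in control, a ratio of 0.616. At 11 DIV the same sum was 31411 CPM in ES and 23601 CPM in control, so the ES library at 19 DIV was the lowest of the 4. The 163 matrix genes summed to 68210 CPM in ES and 50448 CPM in control, and the 68 glial genes to 28434 and 31722 CPM.

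Neuropeptides and proteins of their secretory granules had the lowest list median, a log2 difference of -1.59 over 5 members with 3 lower and 1 higher by 2-fold. Tac1, the precursor of substance P (chromosome 6, 7554879 to 7565834, plus strand), had 2456 ES reads against 7795 control reads. Its levels were 308 and 1131 CPM, a ratio of 0.272 (0.122 to 0.558). Calca, which encodes calcitonin gene-related peptide, the other main peptide of pain-sensing neurons (chromosome 7, 114631478 to 114636357, minus strand), had 2550 and 6642 reads, or 319 and 964 CPM (0.331, 0.148 to 0.688). Both had the lowest of their 4 values in ES at 19 DIV. Vgf, a granule protein induced by nerve growth factor, had 336 and 1983 reads (0.146, 0.00835 to 0.863), and Scg3, which sorts cargo into granules, 642 and 2478 (0.224, 0.0360 to 0.892). Neither passed the rule. Cpe, the enzyme that trims peptide hormones in the same granules but is made by other cells too, went the other way with 3916 and 1684 reads (2.01, 0.793 to 5.67). Bdnf was at 0.601 (0.114 to 2.77).

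Intermediate filament and microtubule genes followed. Prph, peripherin, the intermediate filament of peripheral neurons (chromosome 15, 99055174 to 99058978, plus strand), was at 340 CPM in ES and 906 CPM in control (0.376, 0.171 to 0.775). Nefl, the light neurofilament subunit, had 572 and 2656 reads (0.186, 0.0264 to 0.768), and Nefm, the medium subunit, 1469 and 3393 (0.374, 0.121 to 1.02). The spans of Nefl and Nefm overlap on opposite strands in the annotation, with 3' ends 6505 bases apart, so their reads may not be separate. Nefm had 4.36, 2.44, 1.28 and 2.57 reads for each Nefl read in the control and ES libraries of 11 DIV and then of 19 DIV. That ratio varied more than the ratio of Polr2b to Igfbp7. Whether reads were shared was not tested. Tubb3, the beta-tubulin of neurons, was at 210 and 664 CPM (0.316, 0.113 to 0.777). Stmn2, which keeps growing axonal microtubules dynamic, was at 262 and 789 CPM (0.332, 0.135 to 0.746). Map1b, which binds microtubules of growing axons, was at 755 and 1618 CPM (0.467, 0.277 to 0.770). Mapt, tau, had 1632 and 3807 reads (0.370, 0.128 to 0.950) and missed the rule. Tubulins that dividing and glial cells also use lay nearer to equality than Tubb3 but were mostly below it. Tuba1a was at 0.629 (0.428 to 0.918), Tubb2b at 0.612 (0.402 to 0.926) and Tubb2a at 0.838 (0.359 to 1.95). Tubb4b, with 1328 and 2439 reads, was 2-fold lower like Map1b (0.470, 0.137 to 1.44). The axonal transport motors Kif1a and Kif5b were at 0.892 and 1.56 times control.

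Proteins of the synapse and the neuronal surface were mixed. Nrxn2, a presynaptic adhesion protein (chromosome 19, 6418731 to 6544169, plus strand), had 12 ES reads against 2336 control reads, or 1.5 and 339 CPM, a ratio of 0.00443 with an upper end of 0.400. It was no steadier at 11 DIV, with 42.8 CPM in control and 473 CPM in ES. Syt4, a synaptotagmin of vesicles, was at 0.430 (0.182 to 0.950) and Gnao1, the G protein alpha subunit abundant in neurons, at 0.332 (0.114 to 0.854). Kcna1, an axonal potassium channel, was at 0.443 (0.139 to 1.26), beside its partner Kcna2 at 1.06 (0.467 to 2.46). The adhesion molecules Ncam1 (0.999, 0.562 to 1.79) and Chl1 (1.19, 0.681 to 2.12), which Schwann cells also make, and the RNA-binding protein Elavl4 (1.18, 0.307 to 4.97) were near equality. So were Sncg of the synaptic list (0.951, 0.340 to 2.70) and Dpysl3 of the pan-neuronal list (1.08, 0.454 to 2.64). Uchl1, a defining marker of neurons, was at 0.683 (0.285 to 1.60). Of the 12 pan-neuronal markers at this abundance, 7 were 2-fold lower and 10 were below equality. The lower values of neuronal genes therefore did not extend to each member.

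Zeros among neuronal genes of low count were unequal between the libraries. Over all neuronal lists, 30 of the 151 genes with a read had 0 in ES only (19.9%) and 5 in control only (3.31%). Over all 11500 genes with a read the shares were 16.2% and 13.9%, so the neuronal share in ES lay near the background and that in control under it. At 11 DIV the neuronal counts were 5 in ES only and 14 in control only, of 144. Transcription factors and receptors that set sensory neuron identity had 7 of 22 at 0 in ES only and 0 in control only, and ion channels 10 and 2 of 27. Trpv1, the capsaicin receptor of heat-sensing neurons, had 314 reads in control and 0 in ES. Scn9a, a sodium channel of pain-sensing neurons, had 180 and 0, and Piezo2, the mechanical channel of touch neurons, 185 and 0. Isl1, a transcription factor of sensory neurons, had 129 and 0, and Snap25, a protein of vesicle fusion, 138 and 0. P2rx3, an ATP-gated channel, went the other way with 179 reads in control and 990 in ES, as did the neurotrophin receptor Ntrk3 with 624 and 1118. Counts of this size scattered widely in all genes, and no gene among them passed the spread-adjusted rule.

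**Figure D3:**
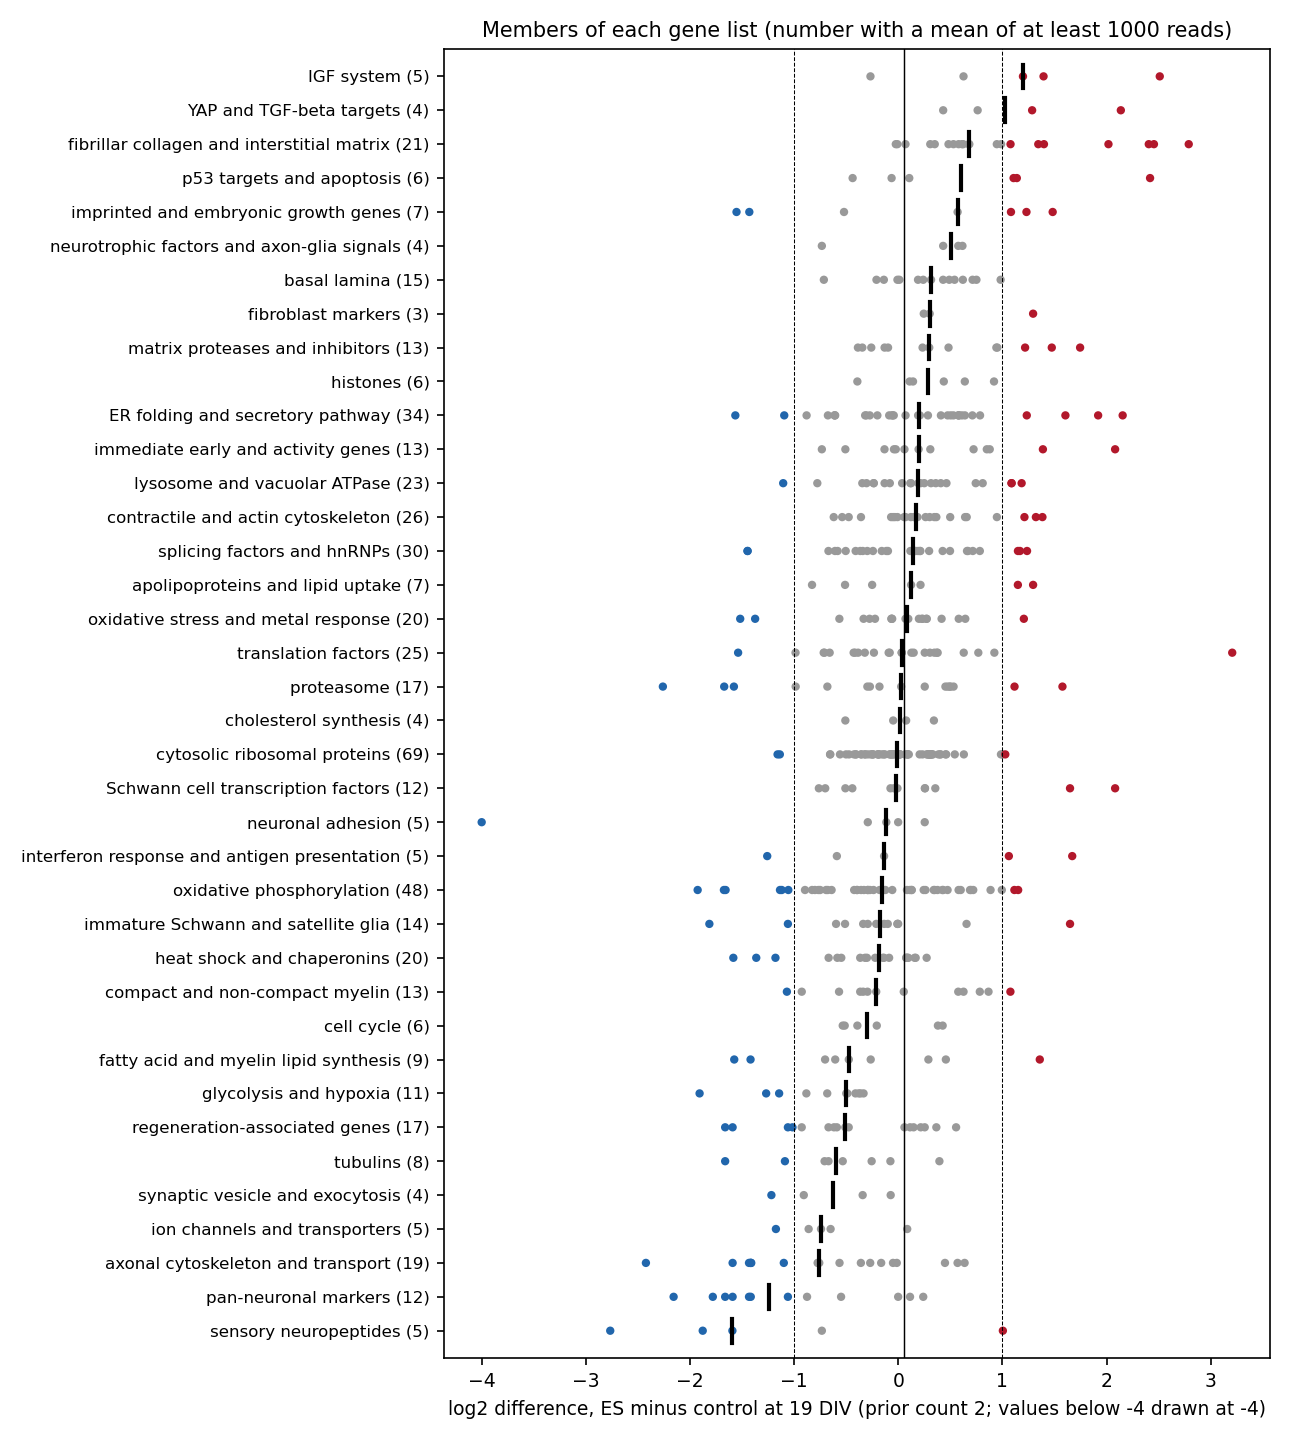
Log2 difference between ES and control at 19 DIV for the members of 38 gene lists that averaged 1000 reads or more, each point 1 gene and each bar the list's median. Red and blue points are past 2-fold (dashed lines), the solid line is the median of all 1594 genes, and Nrxn2 is drawn at -4. Neuropeptides and pan-neuronal markers lie lowest and the insulin-like growth factor system highest.

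The other 6 lower genes were on no neuronal list. Dst, dystonin, a giant linker of the cytoskeleton whose loss causes sensory neuron degeneration in mice (chromosome 1, 33908225 to 34308661, plus strand), had 1017 ES reads against 3851 control reads (0.228, 0.0591 to 0.683). Mif, a cytokine with many cell sources, had 1669 and 4684 reads (0.308, 0.111 to 0.754). Zwint, a kinetochore protein that is also abundant in neurons (chromosome 10, 72654845 to 72674964, plus strand), had 593 and 3282 reads, or 74.3 and 476 CPM (0.156, 0.0236 to 0.605). Psma7, an alpha subunit of the proteasome core (chromosome 2, 180036374 to 180042433, minus strand), had 866 and 3588 reads (0.208, 0.0471 to 0.673). Ppp2r1a, the scaffold of a major protein phosphatase, had 574 and 2965 reads (0.167, 0.0241 to 0.672). Nudt3, which hydrolyses inositol pyrophosphates and caps of messages, had 1578 and 4454 reads (0.306, 0.106 to 0.769). Zwint, Psma7 and Ppp2r1a, like Nrxn2, had under 1000 reads in ES and entered through the control library. Psma7 did not represent its complex: of 17 proteasome genes 3 were 2-fold lower, 2 higher, and the median log2 difference was 0.03. Meg3, a maternally expressed long non-coding RNA abundant in neurons, was at 0.341 (0.130 to 0.805) without passing, and H19, a maternally expressed RNA of embryonic mesoderm, at 2.80 (1.08 to 8.51).

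Genes of the glycolysis and hypoxia list lay on one side of equality. Each of the 11 at this abundance was below equality, 3 of them 2-fold lower, with a median log2 difference of -0.50 and 0 past the spread-adjusted rule. Aldoa, an aldolase, had 2798 ES reads against 5339 control reads (0.452, 0.204 to 0.951). Gpi1, which follows hexokinase in the pathway, had 712 and 2311 (0.266, 0.0474 to 1.03), and Eno2, the enolase of neurons, was at 0.415 (0.0987 to 1.45). The summed level of all 30 genes of the list, those of lower count included, was 3358 CPM in ES and 4793 CPM in control. At 11 DIV it was 5911 and 7072 CPM. Oxidative phosphorylation genes, 48 in number, were nearer to equality, with 2 higher, 6 lower and a median of -0.16.

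Schwann cell genes held the middle of the distribution. Over 35 glial genes at this abundance 3 were 2-fold higher (Egr2, Mag and Sox2), 3 lower (Cd9, Gap43 and Kcnj10) and 0 passed the spread-adjusted rule in either direction. Pou3f1, the transcription factor that precedes Egr2 in myelinating Schwann cells, was at 1048 and 1703 CPM (0.615, 0.389 to 0.964), while Sox2, which marks immature Schwann cells, had 1927 and 529 reads (3.14, 0.670 to 25.6). The 13 myelin genes had a median log2 difference of -0.21.

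Housekeeping lists were near the background. Of 69 cytosolic ribosomal protein genes 2 were higher and 2 lower. Their median log2 difference was -0.01, and it was 0.01 when TMM was taken over the 2 libraries alone. Rps26 had the greatest difference among them upward (2.04, 1.15 to 3.75). Translation factors (25 genes, 1 higher, 1 lower), chaperones of the heat shock list (20 genes, 0 higher, 3 lower) and splicing factors (30 genes, 3 higher, 2 lower) had medians of 0.03, -0.18 and 0.14. Of 20 oxidative stress genes 1 was higher and 2 were lower, and of 13 immediate early genes 2 were higher and 0 lower. The most abundant RNAs, not all of them messages, differed little: Malat1 was at 1.16 (1.01 to 1.33), Vim at 0.995 (0.792 to 1.25) and Rn45s at 0.943 times control (0.856 to 1.04).

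The 26 genes were set beside their values in the 11 DIV pair, which shares no library with the 19 DIV pair. Of the 13 higher genes 5 were above equality at 11 DIV and 8 below, and of the 13 lower genes 6 were above and 7 below. None was called in the same direction at 11 DIV by that pair's own spread-adjusted rule. Tac1 went opposite ways, with 1659 CPM in ES and 588 CPM in control at 11 DIV (2.82, 1.58 to 5.29). Calca did not, at 0.547 (0.241 to 1.18), so the neuropeptides differed in this. Prph (1.79, 0.986 to 3.33), Stmn2 (1.37, 0.704 to 2.70) and Tubb3 (1.34, 0.633 to 2.89) were above equality at 11 DIV with intervals that reached 1 or below. Zwint (0.295, 0.0820 to 0.855) and Psma7 (0.347, 0.123 to 0.861) were low in ES on both days.

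The ES library at 19 DIV was at an extreme of the 4 values for most genes in both directions. The control library at 19 DIV was at the opposite extreme more often among the higher genes than among the lower ones. The genes were chosen for a wide difference between these libraries, so a part of their extreme places comes with the selection. For all 13 lower genes the ES library at 19 DIV had the lowest of the 4 values. The control library at 19 DIV was the highest for 3 of them (Calca, Dst and Map1b), and for 6 the ES library at 11 DIV was (Nrxn2, Nudt3, Prph, Stmn2, Tac1 and Tubb3). For 11 of the 13 higher genes, all but Aes and Apod, the ES library at 19 DIV had the highest value. In 7 of the 13 (Aes, Alas1, Apod, Fn1, Ppap2b, Rcn1 and Spp1) the control library at 19 DIV was the lowest of the 4.

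**Figure D4:**
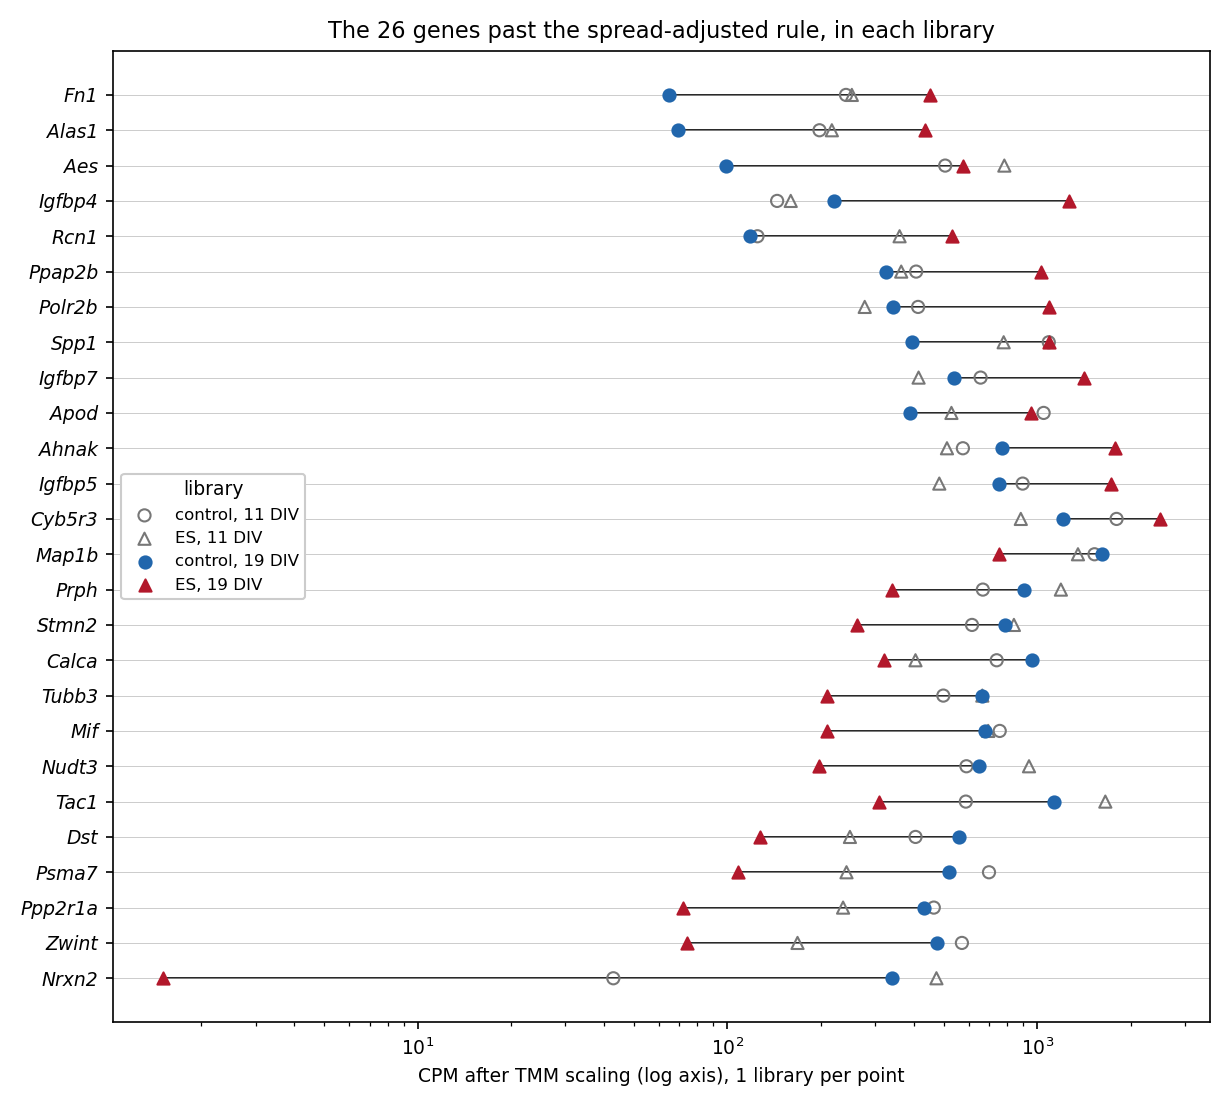
Level in CPM (log axis) of the 26 genes past the spread-adjusted rule in each of the 4 libraries, 1 point per library. Filled symbols joined by a line are control and ES at 19 DIV, open symbols the 11 DIV pair. The red triangle is the leftmost symbol in all 13 lower genes.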

How the data were processed

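The 4 libraries were 3' tag libraries (QuantSeq kit, 500 ng of total RNA, per the labels' protocols). The authors deposited unnormalised counts, 1 table per library with 23282 rows named by gene symbol. Per the submitters' processing notes, Bowtie2, bedtools and the mm10 build were used. Their versions, any duplicate removal and the use of strand are not given in the sources used. Counts were scaled by TMM over the 4 libraries (edgeR 4.0.16, R 4.3.3) and log2 differences used a prior count of 2. The spread factor was the median squared difference over counting error for 3000 genes with a mean of 500 to 3000 reads, divided by the chi-square median, 235 at 19 DIV and 208 at 11 DIV. Clopper-Pearson intervals were computed with Python 3.11.15, numpy 2.4.6, pandas 2.3.3 and scipy 1.17.1, and figures with matplotlib 3.10.9. The calculation was tested on simulated data. Alternatives were other scalings (DESeq2 1.42.0 size factors among them), count and fold minimums, interval levels and thinning. Genes were named by a rule: the 15 furthest from equality per direction by the nearer interval end, the 6 most abundant, defining markers and, per list, the 2 most abundant and up to 3 with the largest difference. Further members were named after their values were seen, and a few that the rule gives are not reported here. The genes, the 45 lists and the rules were chosen with earlier results of these data known. Positions are from GENCODE M21 (GRCm38, the assembly of mm10).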

Additional observations from a re-analysis of the deposited data

Results flagged for a closer look

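Among the 26 genes past the spread-adjusted rule at 19 DIV, 4 differed in the opposite direction at 11 DIV, with 95% spread-adjusted intervals that excluded equality on both days. With 1 library per group the difference between days was not tested. Tac1 was at 0.272 times control at 19 DIV and 2.82 at 11 DIV, and Nrxn2 was at 0.00443 and 11.0. Apod was at 2.45 times control at 19 DIV and 0.504 at 11 DIV, and Cyb5r3 was at 2.05 and 0.491. Neither pair of libraries shares a library with the other.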

How the results depend on the processing

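The number of 2-fold differences depended on the count minimum and the fold. The 189 higher and 139 lower genes became 589 and 473 with a mean of at least 500 reads (3358 genes tested), 43 and 33 with at least 2000 (669 tested), 2945 and 3136 with no minimum beyond 50 reads in the higher library (10027 tested) and 372 and 295 at 1.5-fold. A 95% interval in place of 99% gave 35 higher and 36 lower genes by the spread-adjusted rule, with all 26 among them. The other settings, including 4 further scalings, gave 12 to 14 higher and 10 to 13 lower. All 885 alternative values of the 177 named genes stayed within their intervals. These alternatives were the 4 further scalings and a prior count of 0.5. They shift values little beside intervals this wide, so the outcome could hardly differ and does not show robustness. No named gene past the spread-adjusted rule changed direction, which shifts this small could hardly bring about. Direction was not checked for the others, and those close to equality, such as Ncam1 and Vim, can change side. Of the list medians 258 alternative values moved little and 15 moved by more, among them proteasome genes at -0.61 and imprinted genes at 0.02 with at least 2000 reads. Over the scalings 37 of 38 lists kept their side of 0, ribosomal proteins being the exception, and the median of all genes lay between 0.04 and 0.07. No paired analysis was possible because each group had 1 library. The clumping of reads limits genes under about 1000 reads, and no setting replaces replicates.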
